A study of Drosophila melanogaster with 12 samples.

Results

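The genes described here encode the proteins of the mitochondrial ribosome. They were chosen by name, as every row of the deposited expression table whose FlyBase symbol starts with mRpL (large subunit) or mRpS (small subunit). This gave 71 members among 17521 genes, 47 of the large and 24 of the small subunit. Of 73 such symbols in the annotation, mRpS5 and mRpS34 had no row under their current identifiers and were not analysed here.

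The libraries came from fly tissue with or without the mutation ph505. It is a loss of function of the paired genes ph-p and ph-d, which encode Polyhomeotic, a Polycomb group protein that keeps target genes silent. Metamorphed cells (3 samples) were ph505 clones recovered from flies that had reached adulthood, which no longer grew as tumours. Tumours (6 samples) were ph505 eye-antennal disc tumours passed once a week from one adult abdomen to the next and taken at 4, 8 and 14 weeks, with 2 samples at each age. Control samples (3) were wild-type eye discs from late larvae, placed in an adult abdomen and taken 1 day later. The clones were made with a recombinase under an eyeless enhancer that is also active in leg and genital discs, so the metamorphed cells need not all come from the eye disc. No wild-type tissue that had passed through metamorphosis was sequenced, and the metamorphed libraries were run on another instrument than the others, so genotype, stage and instrument cannot be told apart in metamorphed cells against control. Metamorphed cells and tumours share the ph505 genotype, and between them stage, growth in a host abdomen and instrument cannot be told apart. The labels do not say how many hosts or flies made up a sample, or whether the samples of 1 tumour age came from separate tumours, and p-values measure the spread between these samples only.

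The mitochondrial ribosome makes the few proteins that mitochondrial DNA encodes, all of them parts of the respiratory chain and the ATP synthase. Its RNAs come from mitochondrial DNA, whereas its proteins are encoded in the nucleus, made in the cytosol and imported, so one set of nuclear genes sets the supply for another genome's translation. Members with low numbers (L1 to L36 and S1 to S21) carry numbers shared with bacterial ribosomal proteins, and members with higher numbers are mostly proteins added in mitochondria. In Drosophila these genes have been linked to tissue growth, for instance mRpL12, which is needed for growth driven by Cyclin D and Cdk4.

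Expression is given as CPM (reads scaled to library size with the authors' normalization factors). Fold changes are differences on the log2(CPM + 1) scale, which understates the change of low genes. They were tested with limma across all 10177 genes with at least 1 CPM in at least 2 samples, and a gene was called at a Benjamini-Hochberg adjusted p under 0.05 over all of these genes. Of the 71 members 70 passed the filter, so nearly all of them could be tested. The exception was mRpL53, which had 0 reads in all 12 libraries. By counting error alone, a count of 0 allows up to 0.042 to 1.18 CPM depending on the library, the level of 3 reads. Every exonic base of mRpL53 (chromosome 2R, 13954195 to 13955664, dm6) is shared with CG33155 on the same strand, and CG33155 itself had 323 reads in all libraries together. How shared reads were counted is not given in the sources used here, so the 0 sets no limit on the expression of mRpL53.

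The libraries differed in depth and in their response to transcript length, and both touch these genes. Reads on genes numbered 2072498 in control replicate 1 and 16619078 to 81447816 in the other libraries. The least counted member had 11 reads in control replicate 1 and at least 124 reads in every other library. In the second 14-week tumour a single gene without a symbol reached 224900 CPM and the normalization factor was 0.611, the lowest of the 12. Eye disc markers (eya, so, ey, toy, dac and ato) summed to 12.6 to 54.55 CPM in tumours and 56.6 to 90.1 CPM in metamorphed cells, against 874 to 950 CPM in control discs. In tumours the sum was mostly dac (8.19 to 42.5 CPM), with eya at 0.04 to 1.22 CPM. In bulk tissue, fewer cells of a type and less RNA per cell cannot be told apart. The mRNA levels of the targeted genes do not check the mutation: ph-p stood at 73.5 to 164 CPM in tumours and 206 to 223 CPM in metamorphed cells, against 53.3 to 84.5 CPM in control, and ph-d at 43.9 to 131.8 CPM in tumours and 90.2 to 142 CPM in metamorphed cells, against 58.5 to 81.5 CPM in control.

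The 70 members are short. The longest transcript of a member had a median length of 778.5 nt, with a range of 327 to 2078 nt, against a median of 1951 nt over all genes tested. Genes with transcripts of 600 to 1300 nt read higher in tumours as a class, and the shortest ones did so less. Over all 566 tested genes with transcripts of 600 to 800 nt, the median difference to the control mean lay between 0.20 (second 8-week tumour) and 1.72 (second 14-week tumour) on the log2 scale in the 6 tumours, between 0.10 and 0.57 in metamorphed cells and between -0.08 and 0.07 in the control libraries. In the tumours it lay between 0 and 0.97 for genes of 400 to 600 nt and between -0.04 and 0.74 for those under 400 nt, with the second 8-week tumour lowest in both. Of the genes of 600 to 800 nt, 38.3% were called higher and 9.01% lower in tumours. Over genes of 3000 to 5000 nt it was negative in every tumour, from -1.33 to -0.24. The 3 main comparisons and the ages are therefore counted a second time after each sample's trend with transcript length had been removed by lowess, which takes away any change that genes of like length share, the members' own included.

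**Figure D1:**
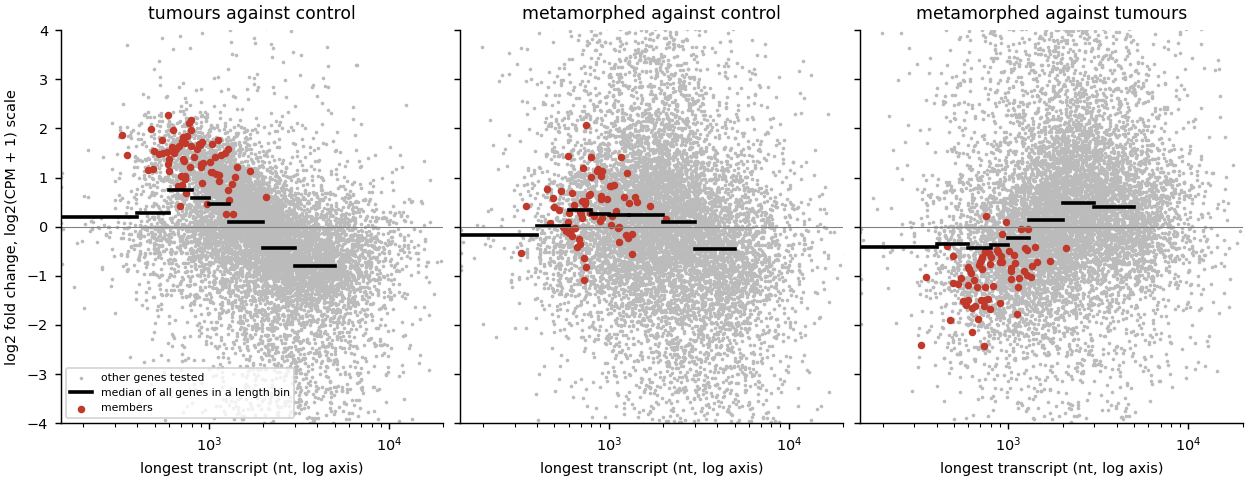
Log2 fold change (log2(CPM + 1) scale) of each gene against the length of its longest transcript in nt (log axis), for the 3 comparisons; grey points are the other genes tested, red points the 70 members and black bars the median of all genes in a length bin up to 5000 nt, and genes beyond 4 on either side are not drawn. The members lie at the short end, mostly above the bar of their bin in tumours against control and mostly below it in metamorphed cells against tumours.

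The levels of the members differed widely. Per kilobase of transcript, the mean over the 12 samples was highest for mRpS18A with 192 CPM per kb, mRpL39 with 179.7 CPM per kb and mRpL34 with 143 CPM per kb. mRpS18A is a relative of bacterial S18, and mRpL39 is known in human as a large subunit protein with the fold of a threonyl-tRNA synthetase. The lowest were mRpL11 with 22.6 CPM per kb, a protein of the stalk base, mRpS9 with 21.4 CPM per kb, a protein of the head of the small subunit, and mRpL13 with 19.8 CPM per kb, an RNA-binding protein of the large subunit. Of the exonic bases of mRpL13, 35.2% are shared with CG10602 on the same strand, so its level depends on how shared reads were counted, which is not given in the sources used here. These means weigh the 6 tumours as much as the other samples together, and the order differed by group. mRpL34 had 247 CPM per kb in tumours and 32.4 CPM per kb in metamorphed cells, against 47.0 CPM per kb in control. In tumours mRpS18A (292 CPM per kb) was highest, in metamorphed cells mRpL35 (112.5 CPM per kb) and mRpL28 (111 CPM per kb), and in control mRpL39 (127 CPM per kb) followed by mRpS18A (95.5 CPM per kb).

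Mitochondrial ribosomal protein genes were higher in ph505 tumours than in control discs. Of the 70 members 55 were called higher and 0 lower, where 14.4% of all genes tested were called higher and 21.6% lower. The members' median log2 fold change was 1.38, beside a median of -0.19 over all genes tested. All 70 estimates were above 0, from 0.26 (mRpL3) to 2.27 (mRpL42), and no member was lower at an unadjusted p under 0.05 in limma or called lower by limma-voom. In 50 members every tumour lay above every control sample, which held for 12.2% of all genes tested. The summed level of the members was 5874 ± 2766 CPM in tumours (SD, n = 6), against 2135 ± 226 CPM in control (SD, n = 3).

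With the length trend removed, 27 members were called higher and 0 lower, beside 11.6% higher and 16.0% lower over all 9953 genes with a known length. Of these 27, 26 were among the 55 called before, and mRpS30 was added. The median log2 fold change was then 0.74, against -0.08 over all genes. limma-voom on the recovered reads also called 27 members higher. Among genes of the members' own length class of 600 to 800 nt, the median was 1.55 for the 26 members and 0.76 for all 566 genes, and 19 of the 26 members were called higher beside 38.3% of all genes of that class. Without control replicate 1 the count was 34, and without control replicate 3 it was 32.

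**Figure D2:**
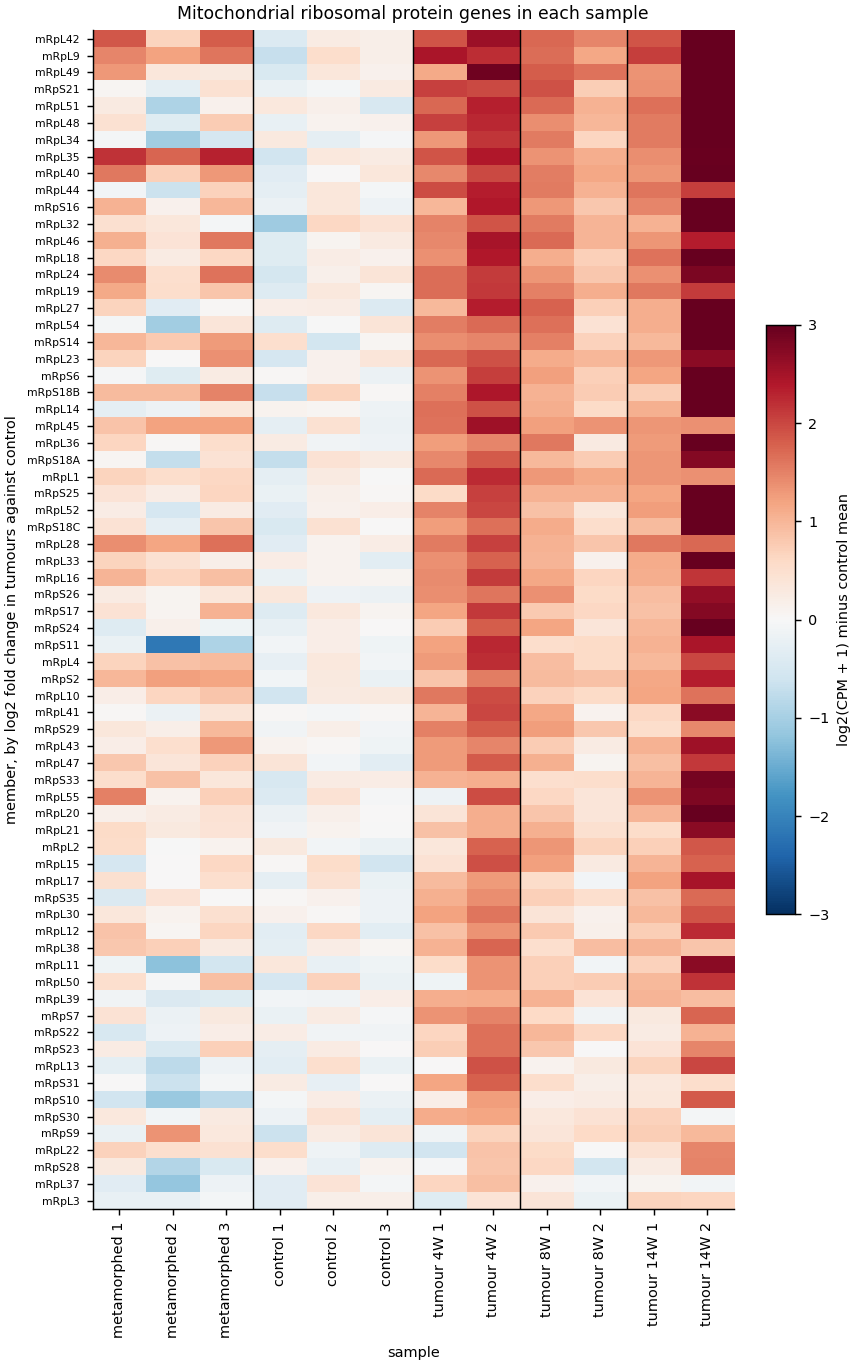
Heat map of the difference between log2(CPM + 1) in each library and the mean of the 3 control libraries, with a row for each of the 70 tested members ordered by their log2 fold change in tumours against control and a column for each library; the colour scale stops at 3 on either side. Nearly all members are red in all 6 tumour columns, deepest in the second 14-week tumour, and the 3 metamorphed columns hold red and blue rows.

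The members were higher than control in every tumour, and by unequal amounts. The summed member level was 4969.9 and 7484 CPM in the 4-week tumours, 4417 and 3282 CPM in the 8-week tumours and 4350.5 and 10741 CPM in the 14-week tumours, against 1925, 2374 and 2104.5 CPM in the control libraries. All 6 tumours lay above all controls, and the spread among the tumours was far wider than that among the controls. The second 14-week tumour held the highest value of 52 members among the 6 tumours and the second 4-week tumour that of 17, while the second 8-week tumour was lowest for 51. Once the length trend was removed, the median difference of the members to the control mean was 0.55 and 0.86 in the 4-week, 0.54 and 0.36 in the 8-week and 0.57 and 1.32 in the 14-week tumours, against -0.20, 0.23 and -0.06 in the control libraries.

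**Figure D3:**
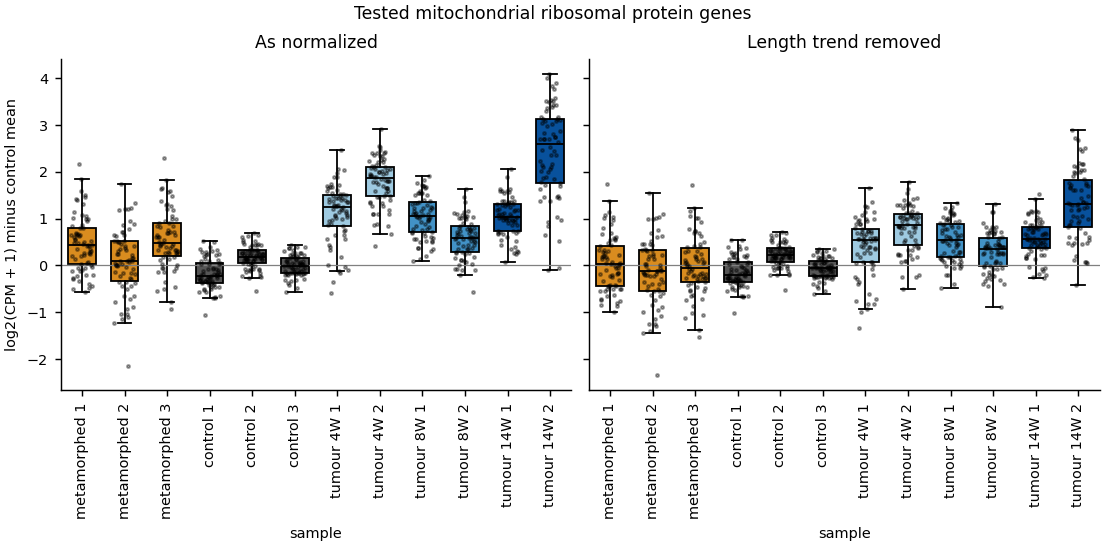
Difference between log2 expression and the control mean for the 70 tested members in each library, on the log2(CPM + 1) scale as normalized (left) and after removal of each library's trend with transcript length (right); points are members, boxes span the quartiles with the median as a line and whiskers reach 1.5 times the box. The 6 tumour medians lie above the 3 control medians in both panels, and the metamorphed medians lie at -0.12 to 0.03 in the right one.

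The 5 members that rose most in tumours with no overlap between groups were mRpL42, mRpL9, mRpL49, mRpS21 and mRpL51. mRpL42 (FBgn0033480, chromosome 2R, 10066650 to 10067242, dm6), a mitochondria-specific protein of the large subunit, had 40.0 CPM in the lowest tumour, a median of 54.5 CPM and 253.5 CPM in the highest, against 10.2, 16.7 and 15.9 CPM in control. Its log2 fold change was 2.27 ± 0.45 (SE; limma adjusted p = 0.0018), or 1.51 ± 0.30 with the length trend removed (adjusted p = 0.0020). The second 14-week tumour stood far above the other 5, and all tumours lay above all controls.

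mRpL9 (FBgn0038319, chromosome 3R, 15330738 to 15331588), whose bacterial relative reaches out from the base of the L1 stalk, had 39.7 to 206 CPM in tumours with a median of 79.5 CPM, against 10.2, 25.2 and 19.6 CPM in control. The log2 fold change was 2.18 ± 0.36 (adjusted p = 5.1e-04), and 1.40 ± 0.28 without the length trend (adjusted p = 0.0019). mRpL49 (FBgn0030433, chromosome X, 12907105 to 12907942), a mitochondria-specific large subunit protein, had 55.6 to 368 CPM in tumours with a median of 84.5 CPM, against 17.6, 31.4 and 27.2 CPM in control. The log2 fold change was 2.12 ± 0.51 (adjusted p = 0.0064), or 1.33 ± 0.40 without the length trend (adjusted p = 0.023), and limma-voom did not call it (adjusted p = 0.066).

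mRpS21 (FBgn0044511, chromosome 3R, 13381276 to 13381809), a small subunit protein shared with bacteria, had 17.4 to 165 CPM in tumours with a median of 41.6 CPM, against 8.62, 9.61 and 12.4 CPM in control. The log2 fold change was 1.99 ± 0.49 (adjusted p = 0.0075), and limma-voom did not call it (adjusted p = 0.084). Of its exonic bases 48.0% face CG8870 on the opposite strand, and the library kit does not mark strand, so reads of the overlap cannot be assigned. mRpL51 (FBgn0032053, chromosome 2L, 8516753 to 8517380), a mitochondria-specific large subunit protein, had 36.6 to 190 CPM in tumours with a median of 58.4 CPM, against 21.6, 19.3 and 12.1 CPM in control (log2 fold change 1.97 ± 0.43, adjusted p = 0.0033). Without the length trend the log2 fold changes were 1.27 ± 0.32 for mRpS21 (adjusted p = 0.0092) and 1.21 ± 0.29 for mRpL51 (adjusted p = 0.0075). In all 5 genes the second 14-week tumour was the highest library.

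**Figure D4:**
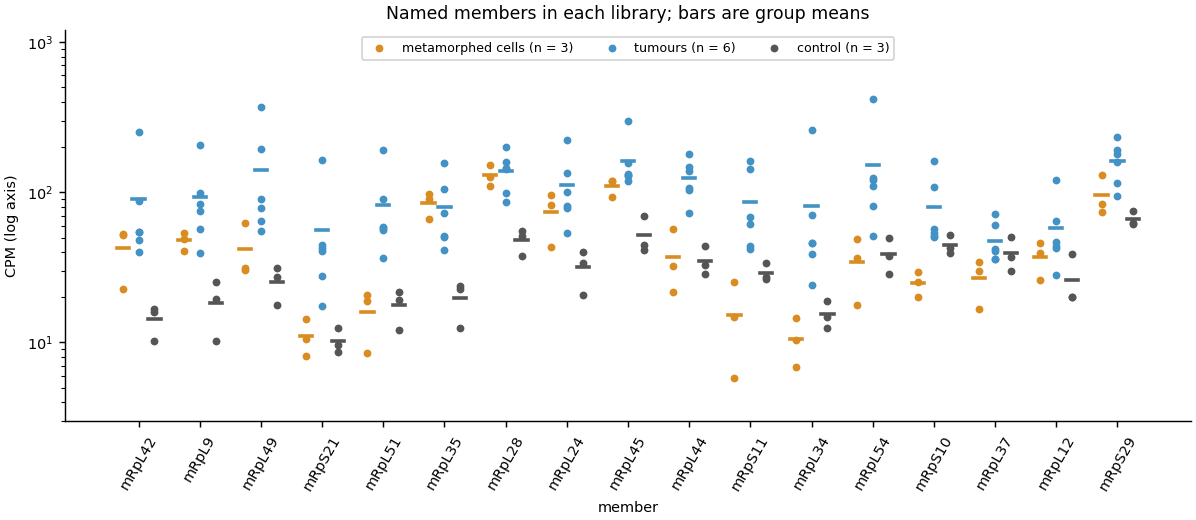
CPM (log axis) of 17 named members in each library, with points for the 3 metamorphed, 6 tumour and 3 control libraries and bars for the group means. Tumours lie above control without overlap for mRpL42, mRpL9, mRpL49, mRpS21 and mRpL51, metamorphed cells lie with the tumours for mRpL35 and mRpL28, and metamorphed cells lie below control without overlap for mRpS11 and mRpS10.

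Of 41 members with exons that face a gene on the opposite strand, and 3 that share exonic bases on the same strand, none was left out for its overlap. mRpL53 is among both and was not counted, since it failed the filter. Among the 29 members with no such overlap, 22 were called higher in tumours and 0 lower, with a median log2 fold change of 1.42, and 11 were called higher with the length trend removed. The shares over all genes were 14.4% higher and 21.6% lower, or 11.6% higher with the length trend removed.

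Members of both subunits were called. Over all genes, 14.4% were called higher in tumours, or 11.6% with the length trend removed. Of 46 large subunit members 37 were called higher in tumours (median log2 fold change 1.46), and of 24 small subunit members 18 (median 1.32). Without the length trend the counts were 21 and 6, with medians of 0.81 and 0.61; the difference between the subunits was not tested. Members with bacterial numbers made up 22 of 28 called in the large and 11 of 13 in the small subunit, and those with higher numbers 15 of 18 and 7 of 11. Along the large subunit, all 8 tested proteins of the central protuberance (the crown of the subunit, here mRpL18, L27, L33, L35, L38, L40, L46 and L48) were called higher, from 1.02 for mRpL38 to 1.97 for mRpL48, and 5 of 8 with the length trend removed. Of the 6 tested proteins around the exit tunnel, through which the new chain leaves, 5 were called higher, and mRpL22 was not (0.46 ± 0.36, adjusted p = 0.34). With the length trend removed, 3 of the 6 were called higher. Of the 5 tested stalk proteins, which handle factors and tRNAs, mRpL1, mRpL10 and mRpL54 were called higher. Without the length trend only mRpL1 was called, with limma adjusted p of 0.12 for mRpL10 and 0.074 for mRpL54.

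The 2 stalk proteins that were not called as normalized were mRpL11 and mRpL12. mRpL12 (FBgn0011787, chromosome 3L, 8956791 to 8957584), the relative of bacterial L7/L12 that recruits translation factors, had 27.9 to 121.5 CPM in tumours with a median of 45.1 CPM, against 19.99, 38.8 and 19.95 CPM in control. The lowest tumour lay below control replicate 2, and the log2 fold change of 1.02 ± 0.38 missed the threshold (adjusted p = 0.052), passing it with quantile scaling (adjusted p = 0.025). Without the length trend the estimate was 0.23 ± 0.27 (adjusted p = 0.56). mRpL11 had 9.10 to 68.8 CPM in tumours, against 12.5, 8.06 and 8.80 CPM in control (0.99 ± 0.49, adjusted p = 0.14).

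Members with a known role outside the core were among those called. mRpL45 (FBgn0263863, chromosome 3R, 22618492 to 22619826), whose human relative anchors the ribosome to the inner membrane at the exit tunnel, had 119.8 to 299 CPM in tumours with a median of 132 CPM, against 41.55, 69.2 and 44.8 CPM in control (1.58 ± 0.27, adjusted p = 5.8e-04; 1.08 ± 0.24 without the length trend, adjusted p = 0.0043). mRpL44 (FBgn0037330, chromosome 3R, 5469463 to 5470636), which has the fold of an RNase III enzyme, had 72.6 to 179.6 CPM in tumours with a median of 122 CPM, against 28.6, 43.7 and 32.95 CPM in control (1.76 ± 0.31, adjusted p = 8.8e-04; 1.17 ± 0.26, adjusted p = 0.0039). mRpS29 (FBgn0034727, chromosome 2R, 22418937 to 22420376), a GTP-binding protein known in human as DAP3, had 94.9 to 234 CPM in tumours with a median of 169 CPM, against 61.55, 74.7 and 62.0 CPM in control (1.22 ± 0.28, adjusted p = 0.0043; 0.86 ± 0.25, adjusted p = 0.021). In all 3 the tumours and the controls did not overlap, and none of the 3 is among the shortest members.

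The 15 members that were not called in tumours had estimates of 0.26 to 1.18. The lowest were mRpL3, a core protein near the catalytic centre, with 0.26 ± 0.29 (adjusted p = 0.52), and mRpL37, a mitochondria-specific large subunit protein, with 0.26 ± 0.31 (adjusted p = 0.55). With the length trend removed, 5 of the 70 estimates were at or below 0, down to -0.36 for mRpS28, and none of them was called.

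By age, 43 members were called higher in 4-week tumours (13.1% of all genes tested), 3 in 8-week tumours (2.70%) and 52 in 14-week tumours (11.7%), each against control, and 0 were called lower at any age, also with limma-voom and also at an unadjusted p under 0.05. Once the length trend was removed the counts were 15 (7.75% of all genes), 2 (3.46%) and 33 (9.99%) at 4, 8 and 14 weeks, and limma-voom called 27, 1 and 25. The 3 ages share the control samples. The members' median log2 fold changes were 1.54, 0.81 and 1.80 at 4, 8 and 14 weeks, and 0.71, 0.44 and 1.02 with the length trend removed. At 8 weeks the 3 were mRpL1, the protein of the L1 stalk (1.22 ± 0.29, adjusted p = 0.011), mRpL19, known from bacteria at a bridge between the subunits (1.30 ± 0.34, adjusted p = 0.022), and mRpL45 (1.29 ± 0.34, adjusted p = 0.023). All 70 estimates were above 0 at 8 weeks and 21 members had an unadjusted p under 0.05. Between 14-week and 4-week tumours, 0 members were called, beside 0.0983% of all genes in either direction. By limma 1 member was higher and 2 were lower at an unadjusted p under 0.05, limma-voom called 0, and the lowest adjusted p was 0.38 (mRpS31, -1.07 ± 0.37).

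Few members were called between metamorphed ph505 cells and control discs. Of the 70, 8 were called higher and 0 lower, where 21.6% of all genes tested were called higher and 19.0% lower. The median log2 fold change was 0.37, beside -0.03 over all genes, with 50 estimates above 0 and 20 below, and 1 member, mRpS11, was lower at an unadjusted p under 0.05. The summed member level was 2999.8, 2406 and 3231 CPM in metamorphed cells, against 1925, 2374 and 2104.5 CPM in control, so all 3 metamorphed libraries lay above the controls, 1 of them narrowly. With the length trend removed the median was -0.01, and 6 members were called higher and 4 lower, beside 22.9% and 18.8% over all genes. limma-voom called 3 higher and 0 lower. Scaling by total reads left 2 higher and 4 lower. The count of 8 was 3 without control replicate 1 or without metamorphed replicate 3, 4 without control replicate 3, 5 without metamorphed replicate 1 or either 8-week tumour, which enter through the shared spread, 12 without the second 14-week tumour and 13 without the first.

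mRpL35 had the largest change of the 8. mRpL35 (FBgn0038923, chromosome 3R, 22023527 to 22024341), a small protein of the central protuberance region shared with bacteria, had 89.6, 66.4 and 97.6 CPM in metamorphed cells, against 12.5, 23.9 and 22.7 CPM in control. The log2 fold change was 2.08 ± 0.41 (adjusted p = 0.0013), or 1.67 ± 0.28 with the length trend removed (adjusted p = 2.9e-04). In tumours it had 41.4 to 156 CPM with a median of 62.3 CPM (1.85 ± 0.36 against control, adjusted p = 0.0016), so the metamorphed libraries lay inside the tumour range. Of its exonic bases 11.1% face CG6028 on the opposite strand.

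mRpL28 (FBgn0031660, chromosome 2L, 4973976 to 4975316), a large subunit protein shared with bacteria, behaved likewise, with 127, 110.3 and 152 CPM in metamorphed cells, against 37.6, 51.5 and 55.6 CPM in control (1.42 ± 0.27, adjusted p = 0.0010; 1.08 ± 0.23 without the length trend, adjusted p = 0.0017). In tumours mRpL28 had 85.9 to 202 CPM. No metamorphed library overlapped the controls in either gene.

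The other 6 had larger adjusted p. mRpL9 had 49.0, 40.8 and 54.0 CPM in metamorphed cells, against 10.2, 25.2 and 19.6 CPM in control (1.42 ± 0.42, adjusted p = 0.016), and mRpL42 had 53.1, 22.6 and 51.7 CPM, against 10.2, 16.7 and 15.9 CPM in control (1.44 ± 0.52, adjusted p = 0.040). mRpL24, known from bacteria at the exit tunnel, had 82.8, 43.4 and 96.5 CPM, against 20.8, 34.0 and 40.1 CPM in control (1.18 ± 0.43, adjusted p = 0.042, and adjusted p = 0.05006 with the length trend removed). limma-voom called none of these 3, and metamorphed replicate 2 was the lowest of the metamorphed libraries in each. mRpL45 had 92.7, 118.8 and 118.6 CPM, against 41.55, 69.2 and 44.8 CPM in control (1.10 ± 0.31, adjusted p = 0.011). The remaining 2 were mRpS2 (1.13 ± 0.36, adjusted p = 0.022) and mRpL19 (0.83 ± 0.31, adjusted p = 0.044).

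Some members stood at or below control in metamorphed cells. mRpS11 (FBgn0038474, chromosome 3R, 17072732 to 17073795), a protein of the platform of the small subunit, had 25.2, 5.77 and 14.8 CPM in metamorphed cells, against 27.4, 33.6 and 26.5 CPM in control. The libraries did not overlap, and the log2 fold change was -1.09 ± 0.51 (adjusted p = 0.10), or -1.50 ± 0.38 with the length trend removed (adjusted p = 0.0060). Every metamorphed library lay below every control in 2 of the 70 members and above in 21. The share over all genes is not given here. mRpS10 (FBgn0038307, chromosome 3R, 15229665 to 15230516), a protein of the head of the small subunit, had 29.6, 20.1 and 25.3 CPM, against 42.7, 51.8 and 39.5 CPM in control, again without overlap (-0.82 ± 0.41, adjusted p = 0.13; -1.22 ± 0.28 without the length trend, adjusted p = 0.0033). mRpL37 had 30.0, 16.6 and 34.4 CPM, against 29.8, 50.8 and 36.9 CPM in control (-0.55 ± 0.35, adjusted p = 0.24; -0.90 ± 0.32 without the length trend, adjusted p = 0.034), and mRpL39 was the fourth of those called once the trend was removed (-0.64 ± 0.24, adjusted p = 0.040). mRpL12, mRpL44 and mRpS29 were not called (0.52 ± 0.44, -0.02 ± 0.36 and 0.50 ± 0.32, with adjusted p of 0.38, 0.98 and 0.23).

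Metamorphed cells had lower levels of many members than tumours. Of the 70, 0 were called higher and 29 lower, where 28.5% of all genes tested were called higher and 18.0% lower. The median log2 fold change was -0.87, beside 0.11 over all genes, and 68 estimates were below 0. No member was higher at an unadjusted p under 0.05, and limma-voom called 0 higher and 32 lower. With the length trend removed, 0 were called higher and 31 lower, 28 of them shared with the 29, beside 27.7% and 19.7% over all genes, and the median was -0.72 beside 0.09. In 26 members every metamorphed library lay below every tumour, which held for 14.1% of all genes tested. The count was 17 without metamorphed replicate 2 and 48 without the first 14-week tumour.

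The largest decrease was that of mRpS11, with 25.2, 5.77 and 14.8 CPM in metamorphed cells, against 42.0 to 162 CPM in tumours with a median of 64.6 CPM. It fell by 2.44 ± 0.44 on the log2 scale (adjusted p = 4.5e-04), and by 2.06 ± 0.33 with the length trend removed (adjusted p = 1.4e-04). mRpL34 (FBgn0083983, chromosome 2R, 16098948 to 16099337), a very short protein shared with bacteria and the shortest transcript of the members, had 14.6, 6.85 and 10.3 CPM in metamorphed cells, against 24.1 to 258.5 CPM in tumours with a median of 46.3 CPM (-2.40 ± 0.49, adjusted p = 0.0012; -2.15 ± 0.32 without the length trend, adjusted p = 7.6e-05). The metamorphed libraries lay below all tumours in both genes.

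mRpL51 had 20.7, 8.49 and 19.0 CPM in metamorphed cells, against 36.6 to 190 CPM in tumours (-2.15 ± 0.43, adjusted p = 9.5e-04). mRpS21 had 10.6, 8.09 and 14.3 CPM, against 17.4 to 165 CPM in tumours (-1.91 ± 0.49, adjusted p = 0.0063). mRpL54 (FBgn0034579, chromosome 2R, 21060789 to 21061587), a mitochondria-specific protein placed at the L7/L12 stalk side in human, had 36.3, 17.7 and 48.8 CPM, against 51.0 to 418 CPM in tumours with a median of 115.6 CPM (-1.88 ± 0.48, adjusted p = 0.0055). Metamorphed cells against control gave log2 fold changes of -0.18 for mRpL51, 0.08 for mRpS21 and -0.24 for mRpL54, with adjusted p of 0.80, 0.93 and 0.76.

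mRpL44 was also lower in metamorphed cells, with 32.4, 21.6 and 56.6 CPM, against 72.6 to 179.6 CPM in tumours (-1.78 ± 0.31, adjusted p = 4.0e-04). For mRpS29 the values were 83.9, 73.9 and 131 CPM, against 94.9 to 234 CPM in tumours, which overlapped (-0.73 ± 0.28, adjusted p = 0.045). mRpL45 (-0.48 ± 0.27, adjusted p = 0.16) and mRpL12 (-0.50 ± 0.38, adjusted p = 0.30) were not called. At the other end mRpL35 and mRpL28 gave 0.23 ± 0.36 and -0.05 ± 0.24 against tumours (adjusted p of 0.64 and 0.89). Of the large subunit members 18 of 46 were called lower and of the small subunit members 11 of 24, beside 18.0% of all genes tested.

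The spread of the changes with length was different in the 3 comparisons. Across the 70 members, which share all libraries, Pearson's r between the log2 of transcript length and the log2 fold change was -0.42 in tumours against control, 0.08 in metamorphed cells against control and 0.42 in metamorphed cells against tumours (Spearman's rho -0.38, 0.11 and 0.44), given as a description. The shorter members tended to have the larger differences between tumours and either other group.

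Related gene sets did not all follow the members. Of all genes tested, 14.4% were called higher in tumours and 21.6% higher in metamorphed cells against control. These shares were 11.6% and 22.9% with the length trend removed. Nuclear-encoded subunits and factors of the respiratory chain and ATP synthase, which include the partners of the proteins that mitochondrial ribosomes make, were called higher in tumours for 51 of 65 tested genes, with a median log2 fold change of 1.66, and 41 were called higher with the length trend removed. Their estimates ran from -0.45 (COX7AL2, adjusted p = 0.46) to 2.53 (UQCR-Q, a complex III subunit, adjusted p = 3.6e-04). In metamorphed cells against control 44 of the 65 were called higher, with a median of 1.51, from -0.77 (COX7AL) to 2.32 (ND-39), and 42 with the length trend removed, while for the mitochondrial ribosomal proteins the count was 8 of 70 and the median 0.37. Against tumours, metamorphed cells had 7 respiratory chain genes higher and 6 lower, beside 28.5% and 18.0% of all genes tested. The median was -0.08, and estimates ran from -2.20 (Sdhaf3) to 1.92 (UQCR-C2). The counts without the length trend were 15 higher and 6 lower, beside 27.7% and 19.7% of all genes. The median then changed sign, to 0.15. The summed level of the respiratory chain genes was 12460.0 to 55477.5 CPM in tumours and 17477 to 24739 CPM in metamorphed cells, against 6721 to 8640.2 CPM in control. The difference between the gene sets was not tested.

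Cytosolic ribosomal proteins, which are also short, were called higher in tumours for 66 of 80 tested genes and lower for 1, with a median of 1.29. Once the length trend was removed the counts were 14 and 1. Over all genes 14.4% were called higher and 21.6% lower, or 11.6% and 16.0% without the length trend. The highest of these proteins in tumours was RpL41 (1.97, adjusted p = 0.0065) and the lowest RpS5b (-4.58, adjusted p = 3.4e-05). In metamorphed cells 6 were called higher and 1 lower against control, with a median of 0.46, from -4.88 (RpS5b) to 1.35 (RpL34a). The shares over all genes tested were 21.6% and 19.0%. Against tumours 36 were called lower, beside 18.0% of all genes tested, with a median of -0.83, from -2.65 (RpL41) to 0.27 (RpL4). The length-corrected counts were 3 higher and 4 lower against control and 29 lower against tumours, beside 22.9%, 18.8% and 19.7% over all genes. Their summed level was 48742 to 258216 CPM in tumours and 41447 to 56995 CPM in metamorphed cells, against 32626 to 44297 CPM in control.

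**Figure D5:**
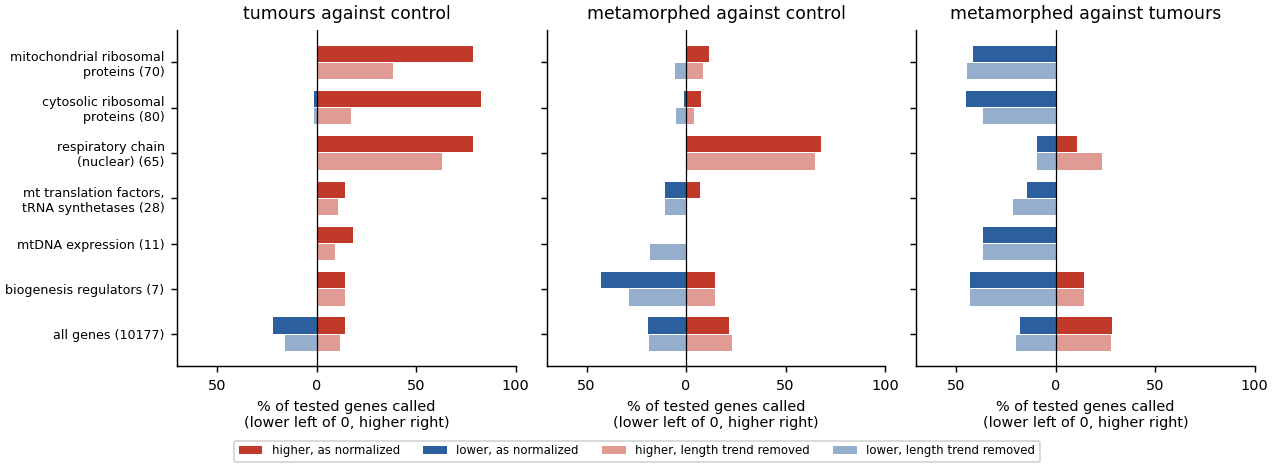
Percentage of the tested genes of each list called higher (right of 0) or lower (left of 0) in the 3 comparisons, as normalized (dark bars) and with the length trend removed (light bars); the number of genes tested is beside each name. As normalized, mitochondrial ribosomal proteins, cytosolic ribosomal proteins and respiratory chain genes are all mostly higher in tumours. Of these lists, only the respiratory chain bar for higher genes stays long in metamorphed cells against control.

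A list of other mitochondrial translation genes was called higher in tumours about as often as genes at large, with its ribosomal proteins counted. Of 28 tested translation factors, tRNA synthetases and further ribosomal proteins with other names, 4 were called higher in tumours (14.4% of all genes tested), with a median of 0.14, from -1.68 (ValRS-m, adjusted p = 0.079) to 1.95 (tko). The 4 were tko, bonsai, GatA and mEFTu2. tko (technical knockout) and bonsai encode the mitochondrial ribosomal proteins S12 and S15 and are missed by a rule on symbols. Apart from them, GatA and mEFTu2 were the only genes of the list called higher. tko had 80.1 to 651 CPM in tumours and 112, 76.4 and 122 CPM in metamorphed cells, against 35.3, 50.9 and 45.1 CPM in control (1.95 ± 0.43 in tumours, adjusted p = 0.0036, and 1.72 with the length trend removed, adjusted p = 0.0089). bonsai had 20.3 to 85.5 CPM in tumours, against 10.6, 24.3 and 16.4 CPM in control (1.13, adjusted p = 0.032, and 0.44 with the length trend removed, adjusted p = 0.31).

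CG4866, for which RefSeq gives the synonym mRpS4, was chosen for description after its values were seen. A synonym does not show that its protein belongs to the mitochondrial ribosome, and it is not counted with the members. Its longest transcript has 692 nt, within the class that read higher in tumours, and no estimate without the length trend is given for it. It had 18.95, 8.49 and 32.9 CPM in metamorphed cells and 78.8 to 532 CPM in tumours, against 59.6, 58.2 and 48.3 CPM in control, which gave 1.65 ± 0.45 for tumours against control (adjusted p = 0.012) and -1.59 ± 0.52 for metamorphed cells against control (adjusted p = 0.027).

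In metamorphed cells the translation factors and synthetases gave 2 higher and 3 lower against control, beside 21.6% and 19.0% of all genes tested. Their estimates ran from -2.75 for ValRS-m to 1.38 for TyrRS-m. Another 4 calls were lower against tumours, beside 18.0% of all genes tested (from -2.21 for Slimp to 1.44 for mIF2, adjusted p = 0.066). After length correction none was called higher and 3 lower against control, and 6 lower against tumours, beside 22.9%, 18.8% and 19.7% over all genes. Their summed level was 959 to 1473 CPM in tumours and 996 to 1134 CPM in metamorphed cells, against 713 to 968.5 CPM in control. Of 11 tested genes for the upkeep and transcription of mitochondrial DNA, 2 were called higher in tumours, beside 14.4% of all genes tested. They were mtSSB, the single-stranded DNA binding protein (1.94, adjusted p = 0.013), and TFAM, the main packaging protein (1.09, adjusted p = 0.012). The lowest was MTPAP (-0.57, adjusted p = 0.32). After removal of the length trend mtSSB was still called (1.19, adjusted p = 0.029) and TFAM was not (0.58, adjusted p = 0.12). Against control, limma called none of the 11 in metamorphed cells and 1 had an unadjusted p under 0.05 (from -1.29 for PolG1 to 0.18 for mtTFB2). Without the length trend mtSSB (-1.30, adjusted p = 0.026) and mtDNA-helicase (-1.004, adjusted p = 0.033) were called lower, beside 18.8% of all genes. Against tumours 4 were lower, beside 18.0% of all genes tested (from -2.81 for mtSSB to 0.30 for MTPAP). Genes encoded by mitochondrial DNA, among them the ribosome's own RNAs, were not analysed here.

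Of 7 regulators linked to mitochondrial biogenesis and growth, 1 was called higher in tumours, Myc (0.99, adjusted p = 0.016), beside 14.4% of all genes tested. Myc had 398 to 831 CPM in tumours and 87.5 to 116 CPM in metamorphed cells, against 188 to 389 CPM in control. The log2 fold change was 1.83 without the length trend (adjusted p = 1.2e-04). Its metamorphed levels were lower than tumours (-2.49, adjusted p = 8.1e-06), and lower than control as normalized (-1.50, adjusted p = 0.0025) but not called without the length trend (-0.58, adjusted p = 0.13). The lowest of the 7 in tumours was ewg, the relative of human NRF1 (-0.35, adjusted p = 0.50). In metamorphed cells against control 1 was higher (foxo, 0.95, adjusted p = 0.047) and 3 were lower, beside 21.6% and 19.0% of all genes tested. The lowest was srl, the fly relative of PGC-1 (-1.99, adjusted p = 0.0019). Of the regulators called there, foxo (1.56, adjusted p = 0.0034), srl (-1.24, adjusted p = 0.019) and ewg (-1.17, adjusted p = 0.023) were still called without the length trend. The summed level of the 7 was 703 to 1391 CPM in tumours and 383 to 518.5 CPM in metamorphed cells, against 550.4 to 957 CPM in control.

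Markers of other tissues moved with the groups, and their part in the members' changes was not tested. The 5 fat body markers in the table summed to 1506 to 9122 CPM in metamorphed cells and 0.97 to 13.7 CPM in tumours, against 145 to 908 CPM in control. In control this was almost wholly the yolk proteins Yp1, Yp2 and Yp3, with Lsp2 at 0 to 5.38 CPM and Fbp2 at 0 to 0.39 CPM. The highest control sum was that of control replicate 2. The 4 haemocyte markers summed to 35.3 to 131 CPM in metamorphed cells and 0 to 8.46 CPM in tumours, against 6.36 to 24.7 CPM in control. The 5 muscle markers summed to 60.4 to 642 CPM in metamorphed cells and 148 to 1047 CPM in tumours, against 8.56 to 31.4 CPM in control. In tumours this was almost wholly Mlc2, with Act88F, up and TpnC73F at 0 to 0.34 CPM. The ovarian marker osk had 19.99, 531 and 0.14 CPM in the 3 control libraries and at most 1.56 CPM elsewhere, and without control replicate 2, 41 members were called higher in tumours. Neuron and glia markers were lower in tumours than in control, with 33.2 to 72.4 CPM against 203 to 401 CPM for neurons and 0.22 to 16.8 CPM against 67.0 to 82.9 CPM for glia. The neuron sum in tumours was mostly elav (24.4 to 51.5 CPM), with nSyb and Syt1 at 0 to 1.84 CPM. In metamorphed cells the neuron and glia markers stood at 55.8 to 100.3 CPM and 64.9 to 109 CPM. The glia sum there was mostly moody (55.9 to 107.9 CPM). The other glia marker, repo, had 0.17 to 9.02 CPM in metamorphed cells, against 10.9 to 12.5 CPM in control.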

How the data were processed

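Polyadenylated RNA of 12 samples was sequenced from SMARTSeq2 NexteraXT libraries. According to the submitters' processing notes and the methods, the authors aligned reads to dm6 with TopHat2 2.0.12 and Bowtie2 2.2.3 and deposited log2 CPM values made with edgeR 3.16.5 in R 3.3.1; the read counter and the annotation are not given in the sources used here. The deposited log2 values hold a prior of 2.0 reads on average. It was subtracted, which gave whole reads (within 0.05) for 100.0% of the values checked, up to 2000 reads, and linear CPM. The test planned for CPM was kept.

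Symbols, coordinates and the longest transcript came from Ensembl release 115 (BDGP6, the dm6 assembly), which named 17215 of the 17521 genes. Log2(CPM + 1) was fitted over the 5 groups together with limma 3.58.1 in R 4.3.3, with the trend option, tumours being the mean of the 3 ages. limma-voom was run on the recovered reads. The script was tested on simulated data. Summaries were made in Python 3.11.15 (SciPy 1.17.1, NumPy 2.4.6, pandas 2.3.3) and drawn with matplotlib 3.10.9. Total reads were 2072498 to 81447816 per sample, and limits from counts of 0 cover counting error only.

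Alternatives were another pseudocount (0.1), no filter, quantile scaling, total reads, removal of the length trend (lowess, span 0.3), the values as deposited, limma-voom, only the groups compared, the replicate number as a block and leaving out each sample. The named genes are, per comparison, the 5 members called with the largest change in each direction whose samples do not overlap, the 3 called in each direction with the largest change without the length trend, the 3 highest and 3 lowest per kilobase, members that failed the filter, mRpL12, mRpS29, mRpL44 and mRpL45, and the extremes of each related list. Other members are named where a count of a few is spelled out. Members, lists and tests were chosen with earlier results of these data known. The labels do not tie replicate numbers to a shared batch, and same-numbered samples did not all deviate together.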

Additional observations from a re-analysis of the deposited data

Results flagged for a closer look

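Among the 6 tumours, 1 library stood apart from the other 5 (its gap to the nearest other, over the range, was above Dixon's critical value for 6 samples) in 10 of the 24 quantities checked. For a single quantity chance flags about 1 in 20. The 24 quantities share the same 6 libraries and are not independent, so their count is not a test against chance. The second 14-week tumour was the high one for mRpL11 (68.8 CPM), mRpL34 (258.5 CPM), mRpL42 (253.5 CPM), mRpL51 (190 CPM), mRpL54 (418 CPM), mRpL9 (206 CPM), mRpS18A (359.5 CPM) and mRpS21 (165 CPM). For mRpL45 the second 4-week tumour was high (299 CPM), and for mRpL39 the second 8-week tumour was low (192 CPM). The same check was met by 30 of the 70 tested members, and the summed and median levels of the members were not flagged. Without the second 14-week tumour, 46 members were called higher in tumours than in control and 24 lower in metamorphed cells than in tumours.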

How the results depend on the processing

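No alternative called a member lower in tumours than in control or higher in metamorphed cells than in tumours. Members higher in tumours numbered 27 with the length trend removed and 27 with limma-voom, beside 55, and 37 to 63 under the other settings that kept all samples; leaving out 1 sample gave 32 to 61. Members higher in metamorphed cells than in control numbered 3 with limma-voom and 2 with total reads, beside 8, and 3 to 13 without 1 sample; lower ones numbered 4 with the length trend removed, 4 with total reads and 1 with quantile scaling, beside 0, and 0 to 1 without 1 sample. Members lower in metamorphed cells than in tumours numbered 22 to 47 under the settings that kept all samples, beside 29, and 17 to 48 without 1 sample. Quantile scaling and total reads each gave 47. The causes were not tested. The members' median log2 fold change ranged over 0.74 to 1.63 in tumours, -0.11 to 0.49 in metamorphed cells against control and -1.10 to -0.67 against tumours. Deviations of same-numbered samples correlated at -0.196 (8-week with 14-week tumours) to 0.272 (4-week with 14-week tumours), -0.02 on average; with the replicate number as a block the counts were 45 higher in tumours, 7 higher and 27 lower in metamorphed cells (against control and tumours), so the pairing by number changed none by over 1.5 times, and with the 8-week numbers crossed, which was chosen after seeing the data, they were 49, 9 and 30. Single members reversed 4 times, each near 0 and not called: mRpS29 in metamorphed cells against control with total reads (-0.008), and mRpL44 in the same comparison without control replicate 2 (0.15), metamorphed replicate 1 (0.02) and metamorphed replicate 2 (0.30; -0.37 to 0.30 over all samples left out). Control replicate 1 is the shallowest library and limits all comparisons with control.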
